A study of Mus musculus with 19 samples.

Results

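The mitochondrial ribosomal protein genes were examined in mouse embryonic stem (ES) cells that lacked Trim71, Lin28a, both or neither. The genes were taken by symbol, as every Mrpl or Mrps symbol with a number and at most 1 letter after it. The table of 21685 genes held 77 such genes, and all 77 were among the 14988 genes that reached 10 normalised units, a log2 value of 3.32, in at least 4 libraries. The members with the lowest values were Mrps18c (6.38 to 6.61), Mrps6 (6.57 to 6.91) and Mrps36 (6.87 to 7.22), so no member lay close to the floor.

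The mitochondrial ribosome makes the few proteins that mitochondrial DNA encodes, nearly all of them core subunits of the respiratory chain. Its ribosomal RNAs come from mitochondrial DNA, while its proteins come from nuclear genes, are made in the cytosol and are imported. Some of these proteins have counterparts in bacterial ribosomes and others are found only in mitochondria, and the 2 kinds are described separately here for the large and the small subunit. By that division 30 members were conserved and 20 mitochondrion-specific proteins of the large subunit, and 16 were conserved and 10 mitochondrion-specific proteins of the small subunit. Mrps30 and Mrps18a carry small-subunit names but sit in the large subunit, and Mrps36 is counted apart because its product works with the 2-oxoglutarate dehydrogenase complex.

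The cells were male C57BL/6 ES cells grown with serum and LIF and sorted for the surface marker SSEA-1 before RNA was taken. In the name of each of the 4 genotypes the Trim71 state precedes the Lin28a state. Trim71 is a TRIM-family RNA-binding protein of early embryos, and Lin28a binds let-7 microRNA precursors and keeps them from maturing. WT-WT cells (labelled Trimfl/fl - Lin28afl/fl, 4 libraries) carried floxed alleles of both genes, and KO-WT cells (Trim-/- - Lin28afl/fl, 4 libraries used) had lost Trim71. WT-KO cells (Trimfl/fl - Lin28a-/-, 5 libraries) lacked Lin28a, and KO-KO cells (Trim-/- - Lin28a-/-, 5 libraries) lacked both. "WT" therefore means an intact floxed allele. Trim71 was deleted in culture by 2 days of 4-OHT at 500 nM, followed by 7 or more days of growth before harvest; whether the floxed cells also received 4-OHT is not given in the sources used here. Each Lin28a state came from 2 clones, 1 and E3 for intact Lin28a and 1-4 and C1 for Lin28a-/-, so Lin28a genotype and clone cannot be told apart, and libraries of the same clone are repeats of 1 line on different days. Clones 1 and 1-4 were handled on days 1 and 5, and clones E3 and C1 on days 2, 3 and 4.

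The checks of the labels and of library quality came out as follows. Trim71 values did not overlap between Trim71 states within a Lin28a state (log2 difference -1.31 with Lin28a intact and -1.38 without it), and Lin28a values did not overlap between Lin28a states (-1.65 and -1.56). KO-WT replicate 5 matched its group's mean to within 1.5e-08 in every gene and was left out. Of the stem-cell markers, 8 of 9 passed the filter, Fut4 being under it, and their summed linear level was 27800 to 28600 units in WT-WT, 29500 to 30100 in KO-WT, 35000 to 37300 in WT-KO and 36300 to 38000 in KO-KO. The summed level of 7 trophectoderm markers was 3390 to 4860, 3420 to 4510, 249 to 316 and 278 to 422 in the same order, with Cdx2 and Elf5 under the filter, and that of 7 primitive endoderm markers was 262 to 361, 317 to 475, 80.6 to 104 and 92.0 to 130, with Sox17 and Foxa2 under it. Of 7 fibroblast markers 3 were in the table, and they summed to 93.0 to 118, 87.3 to 97.9, 64.4 to 70.8 and 63.8 to 79.9. These sums thus moved with the loss of Lin28a, and the stem-cell sum was also higher in KO-WT than in WT-WT cells. Single markers did not all follow. After Lin28a loss without Trim71, 3 stem-cell markers were called higher and 1, Utf1 (-0.29), lower. For loss of both, 4 trophectoderm markers were called lower and 1, Eomes (0.26), higher. Of the 3 fibroblast markers, 2 were negative and 1 positive after Lin28a loss in either Trim71 state. The part of the markers in the results was not tested.

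The stretches just upstream of 4 members are shown because these genes carry the patterns described below and have no divergent or overlapping neighbour that would share the stretch. Mrps2 rose and Mrps31 fell in every comparison of Lin28a-/- with Lin28a-intact cells. Mrpl34 and Mrpl52 had their highest mean in KO-WT and their lowest in KO-KO cells. The KO-KO values of Mrpl52 overlapped those of WT-WT and WT-KO cells. Each run gives the 250 bases before the annotated start, 5′ to 3′ along the gene, from RefSeq promoter windows on GRCm38.p6, with the ETS-family core CCGGAAG or its reverse complement CTTCCGG in capitals.
Mrps2 (chr2:28467816-28468065, plus strand): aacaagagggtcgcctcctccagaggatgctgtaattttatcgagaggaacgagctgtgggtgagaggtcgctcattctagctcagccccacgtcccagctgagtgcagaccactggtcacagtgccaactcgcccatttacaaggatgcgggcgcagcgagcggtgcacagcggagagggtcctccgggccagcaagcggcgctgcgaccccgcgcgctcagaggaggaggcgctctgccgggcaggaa
Mrps31 (chr8:22411090-22411339, plus strand): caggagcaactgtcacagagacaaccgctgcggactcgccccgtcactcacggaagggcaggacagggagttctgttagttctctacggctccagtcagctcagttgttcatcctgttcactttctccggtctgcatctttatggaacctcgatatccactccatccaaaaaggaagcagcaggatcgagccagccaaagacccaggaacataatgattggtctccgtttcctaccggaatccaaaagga
Mrpl34 (chr8:71464676-71464925, plus strand): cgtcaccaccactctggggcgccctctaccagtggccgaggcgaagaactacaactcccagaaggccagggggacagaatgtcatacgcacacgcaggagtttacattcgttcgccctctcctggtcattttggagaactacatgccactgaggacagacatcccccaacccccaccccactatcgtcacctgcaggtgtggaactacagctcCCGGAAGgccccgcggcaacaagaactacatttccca
Mrpl52 (chr14:54426659-54426908, plus strand): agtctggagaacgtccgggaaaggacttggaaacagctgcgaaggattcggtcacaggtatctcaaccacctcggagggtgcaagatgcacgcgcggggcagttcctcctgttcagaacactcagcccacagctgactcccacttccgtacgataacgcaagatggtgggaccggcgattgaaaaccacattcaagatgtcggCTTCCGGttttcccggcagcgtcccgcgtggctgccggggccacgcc
The Mrps2 and Mrps31 stretches held none of the 4 motifs searched, and the Mrpl34 and Mrpl52 stretches each held the ETS core. Within these 250 bases, other members with the same patterns differed in motif content. Mrps12, Mrpl57 and Mrpl36 also had their highest mean in KO-WT and their lowest in KO-KO cells. The same stretch of Mrps12 and of Mrpl57 held only the SP1 core GGGCGG, and that of Mrpl36 held no motif. Mrpl37, which rose like Mrps2, held the SP1 core. Motifs were counted on both strands in windows of 300 bases, 250 before and 50 from the start, and 68 members had such a window, 74 windows in all. CCGGAAG was in 33.8% of member windows, in 16.9% of the windows of all tested genes and in 8.86% of all windows. The YY1 motif was in 6.76% against 1.9% and 0.852%, the NRF1 motif in 4.05% against 2.0% and 0.971%, and the SP1 core GGGCGG, which may overlap the others, in 52.7% against 62.1% and 35.7%. These are counts of letters and not of bound sites. The median log2 difference after Trim71 loss with Lin28a intact was 0.093 over the 25 members with an ETS core and 0.037 over the 43 without. Called in that comparison were 3 of the 25 and 0 of the 43. Mrps12 and Mrpl57 were among those 3, so each held an ETS core in a window of 300 bases. For Trim71 loss without Lin28a the calls were 2 of 25 and 1 of 43. For Lin28a loss they were 4 of 25 and 9 of 43 with Trim71, and 10 of 25 and 12 of 43 without it. Medians for the other motifs are for Trim71 loss with Lin28a intact. For NRF1 it was 0.132 over 3 members with the motif and 0.051 over 65 without. For YY1 it was 0.13 over 5 and 0.051 over 63, and for SP1 0.049 over 34 and 0.053 over 34. A link between any motif and the differences was not tested.

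The members varied little. Each value is the deposited log2 normalised expression, so a difference of 1 is a doubling, and values are not scaled by transcript length and are not compared between genes. The 18 libraries of 74 members spanned under 0.5, which holds for 96.1% of members and 50.6% of all tested genes. The span ran from 0.12 for Mrps25 to 0.55 for Mrpl34 and Mrpl57, with Mrpl46 at 0.51, and its median was 0.33. The 4 genotype means lay within 0.25 of each other for 69 members and within 0.41 for all 77. The residual SD between libraries had a median of 0.0762 over members, 0.107 over all tested genes and 0.0832 over the 2720 other genes of like level. Of the 77 members, 40 passed the test in none of the 5 pairwise comparisons and 37 in at least 1, and the called differences were 0.13 to 0.41 in absolute log2, at most 1.33-fold. The share of all genes called in at least 1 comparison was not counted, and loss of both alone called 45.6% of them.

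**Figure D1:**
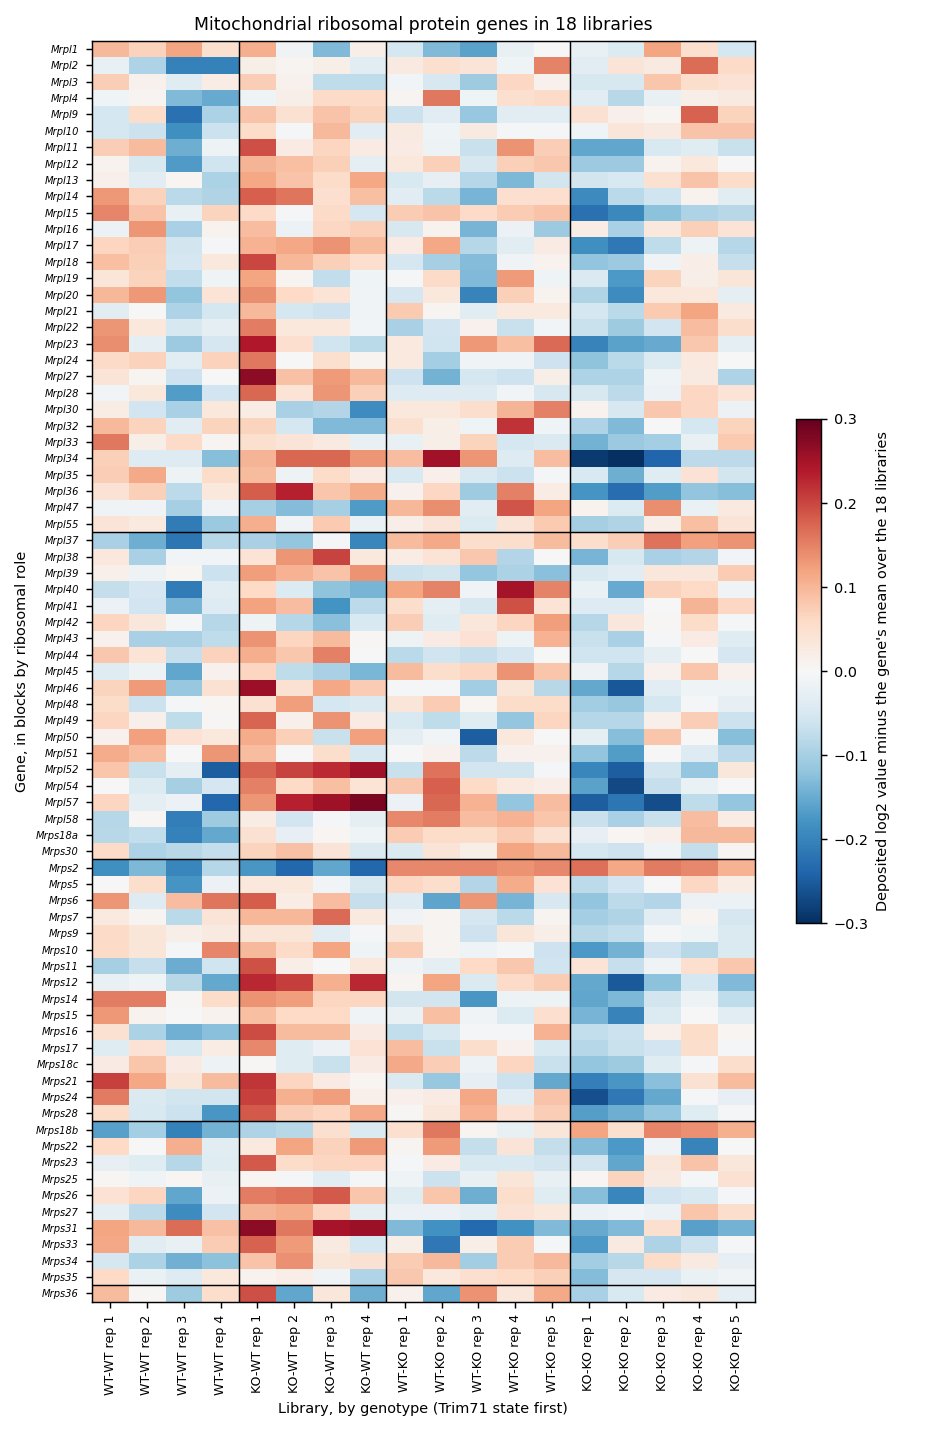
Each row is 1 of the 77 genes, in blocks by ribosomal role (large subunit with a bacterial counterpart, large subunit mitochondrion-specific, small subunit with a counterpart, small subunit mitochondrion-specific, Mrps36), and each column 1 of the 18 libraries, grouped by genotype. Colour gives the log2 value minus the gene's mean, and the rows of Mrps2 and Mrps31 change colour at the border between Lin28a states, while the columns of KO-WT replicate 1 and KO-KO replicates 1 and 2 are shifted in most rows.

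Some libraries stood apart over the whole gene set. In KO-WT replicate 1, from day 2, 70 of 77 members were above their own mean and the median deviation was 0.105. In KO-KO replicates 1 and 2, from days 1 and 2, 9 and 10 members were above their mean, with medians of -0.088 and -0.09. In WT-WT replicate 3, from day 4, 16 members were above and the median was -0.075, and the other 14 libraries had medians between -0.024 and 0.057. The median over all tested genes stayed between -0.019 and 0.019 in the 18 libraries. Days 1 and 2 lacked 1 genotype each, and results from days 3, 4 and 5 alone, which held all 4 genotypes, are given beside the counts below.

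Loss of Trim71 in cells with Lin28a raised 3 of the 77 genes and lowered none. Mrpl57 and Mrpl52, 2 mitochondrion-specific proteins of the large subunit, and Mrps12, a conserved small-subunit protein near the decoding centre, were 19.6% to 21.2% higher in KO-WT than in WT-WT cells. These 3 calls were 3.9% of members, against 11.2% of all 14988 genes called in this comparison, 4.74% higher and 6.43% lower. The calls are from limma with adjusted p under 0.05. The members' median log2 difference was 0.053 and 58 of 77 were positive, against a median of -0.005 over all genes, and 23 members had an unadjusted p under 0.05 (29.2% of all genes did). Without WT-WT replicate 3 the median was 0.018, and 9 members had an unadjusted p under 0.05. Of all genes 3331 did in that fit, against 4376 with every library.

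Mrps12 read 8.48, 8.49, 8.42 and 8.35 in WT-WT replicates 1 to 4 and 8.73, 8.71, 8.61 and 8.73 in the KO-WT libraries. In the WT-KO libraries it read 8.51, 8.62, 8.46, 8.56 and 8.58, and in the KO-KO libraries 8.35, 8.25, 8.38, 8.45 and 8.37. Every KO-WT library was therefore above every WT-WT library, and every KO-KO library was below every WT-KO library. The log2 difference KO-WT minus WT-WT was 0.26 ± 0.0593 (SE, adjusted p = 0.0154), higher in 3 of 3 same-day pairs.

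Mrpl57 read 7.85, 7.76, 7.77 and 7.55 in WT-WT cells and 7.92, 8.02, 8.04 and 8.07 in KO-WT cells. It read 7.77, 7.96, 7.89, 7.67 and 7.88 in WT-KO cells and 7.54, 7.57, 7.52, 7.71 and 7.67 in KO-KO cells. The 2 Lin28a-intact groups did not overlap, while the WT-KO and KO-KO groups did, by WT-KO replicate 4. The difference KO-WT minus WT-WT was 0.28 ± 0.0817 (adjusted p = 0.0405, 3 of 3 pairs).

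Mrpl52 read 8.15, 8.0, 8.04 and 7.82 in WT-WT cells and 8.24, 8.27, 8.29 and 8.32 in KO-WT cells. Its WT-KO values were 8.0, 8.23, 8.01, 8.01 and 8.06 and its KO-KO values 7.87, 7.82, 8.01, 7.95 and 8.10. The KO-WT libraries were the 4 highest of all 18. The difference KO-WT minus WT-WT was 0.28 ± 0.081 (adjusted p = 0.0398, 3 of 3 pairs).

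**Figure D2:**
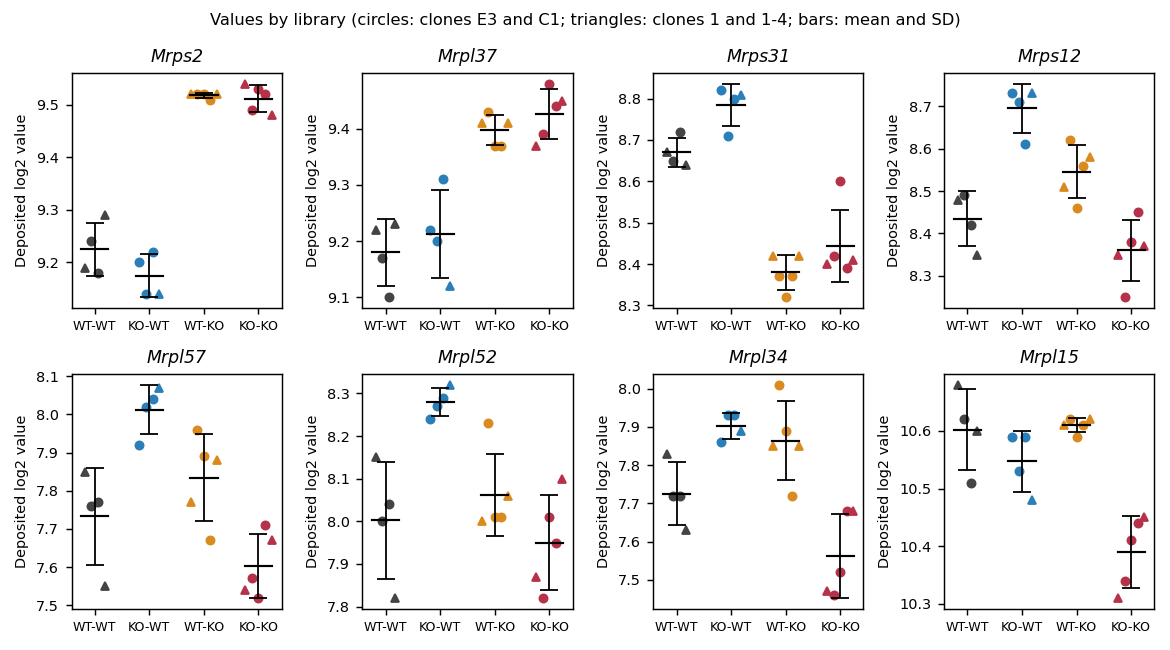
Deposited log2 values of 8 members in each library by genotype, with circles for clones E3 and C1, triangles for clones 1 and 1-4, and the mean with SD as bars. Mrps2 and Mrpl37 are high in both Lin28a-/- groups and Mrps31 is low, while Mrps12, Mrpl57, Mrpl52 and Mrpl34 have their highest mean in KO-WT and their lowest in KO-KO cells.

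These calls were close to the threshold. Mrpl57 and Mrpl52 each lost the call in 9 of 18 fits that left out 1 library (adjusted p up to 0.165 and 0.163), namely WT-WT replicates 2, 3 and 4, KO-WT replicates 2, 3 and 4, WT-KO replicates 1 and 5 and KO-KO replicate 2, and Mrps12 lost it without WT-WT replicate 4 (0.0686). The count of members was 5 without WT-WT replicate 1, 0 without WT-WT replicate 4, and 1 without each of WT-WT replicate 3, KO-WT replicates 2 and 3, WT-KO replicates 1 and 5 and KO-KO replicate 2. The share of all genes called, 11.2% with every library, changed too. It was 9.05% without WT-WT replicate 1, 3.52% without WT-WT replicate 4 and 4.02% to 9.71% in the fits with 1 member. On days 3, 4 and 5 alone the count of members was 1, with 3.16% of all genes called. Without the day term in the fit it was 24, with 28.1% of all genes called. In clones E3 and C1 alone it was 0, with 0.0667% of all genes called and a members' median of 0.109. In clones 1 and 1-4 alone, with 1 KO-WT library, the members' median was -0.013. Across members the difference rose with the GC content of the transcript (Spearman's rho = 0.56 over 77 members, 0.51 over 14724 genes, a description across genes that share the same libraries). After correction of every library for GC content and transcript length, Mrps12 gave 0.13 (adjusted p = 0.195), Mrpl52 gave 0.16 (0.217) and Mrpl57 gave 0.42 (0.0199).

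Without Lin28a, loss of Trim71 lowered 4 members and raised none. They were Mrpl34, Mrpl15 and Mrpl36, conserved large-subunit proteins, and Mrps12, and in KO-KO cells Mrpl34 fell by 18.9% and Mrpl15 fell by 14.2% from WT-KO cells. The 4 were 5.19% of members, against 8.38% of all genes called, 4.26% higher and 4.12% lower. The members' median was -0.043 and 54 of 77 were negative, against a median of -0.009 over all genes.

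Mrpl34 read 7.85, 8.01, 7.89, 7.72 and 7.85 in WT-KO cells and 7.47, 7.46, 7.52, 7.68 and 7.68 in KO-KO cells. In WT-WT cells it read 7.83, 7.72, 7.72 and 7.63 and in KO-WT cells 7.86, 7.93, 7.93 and 7.89. All 5 KO-KO libraries were below all WT-KO libraries, and all 4 KO-WT libraries were above all WT-WT libraries. The difference KO-KO minus WT-KO was -0.30 ± 0.0665 (SE, adjusted p = 0.0106, lower in 5 of 5 pairs), and KO-WT minus WT-WT was 0.18 ± 0.0777, which did not pass (adjusted p = 0.146).

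Mrpl15 read 10.61, 10.62, 10.59, 10.61 and 10.62 in WT-KO cells and 10.31, 10.34, 10.41, 10.44 and 10.45 in KO-KO cells. Its WT-WT values were 10.68, 10.62, 10.51 and 10.60 and its KO-WT values 10.59, 10.53, 10.59 and 10.48. The KO-KO libraries were the 5 lowest of the 18. The difference KO-KO minus WT-KO was -0.22 ± 0.0421 (adjusted p = 0.00409, 5 of 5 pairs).

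Mrpl36 read 8.27, 8.32, 8.15, 8.41 and 8.28 in WT-KO cells and 8.08, 8.03, 8.09, 8.14 and 8.13 in KO-KO cells. In WT-WT cells it read 8.30, 8.33, 8.18 and 8.29, and in KO-WT cells 8.44, 8.49, 8.34 and 8.37. The KO-KO group lay below all other libraries. The difference KO-KO minus WT-KO was -0.19 ± 0.055 (adjusted p = 0.0432), and that of Mrps12 was -0.18 ± 0.0508 (adjusted p = 0.0338), each lower in 5 of 5 pairs.

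Mrpl34 and Mrpl15 kept the call whichever library was left out. Mrpl36 lost it in 13 of 18 such fits and Mrps12 in 8 of 18, with adjusted p up to 0.139 and 0.125; the Mrps12 call was lost without WT-KO replicate 1, 2, 4 or 5 or KO-KO replicate 1, 2, 3 or 5, and the Mrpl36 call without any of these and without WT-WT replicate 1, 2 or 4, KO-WT replicate 4 or KO-KO replicate 4. The count of members was 2 without any of WT-KO replicates 1, 2 and 5 or KO-KO replicates 1, 2, 3 and 5, with 4.59% to 7.37% of all genes called. It was 0 on days 3, 4 and 5 alone (1.45% of all genes called) and in clones E3 and C1 alone (1.02%). Without the day term it was 12, with 17.5% of all genes called. In clones 1 and 1-4 alone, with 1 KO-WT library in the fit, the members' median was -0.07. In same-day pairs the members' median was -0.115 and -0.104 on days 1 and 2 and 0.016, -0.007 and -0.045 on days 3, 4 and 5.

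The effect of Trim71 loss pointed up with Lin28a and down without it for 39 of 77 members, 50.6%, against 20.3% of all genes. Mrps12 was the only member called in both comparisons, and in opposite directions. The test of the difference itself, the interaction, called 0 members with limma (0.02% of all genes, 3 genes), and 21 members had an unadjusted p under 0.05, against 15.1% of all genes. Without the day term 12 members were called, all negative, and 4.49% of all genes (673 genes) were called. The members' median interaction was -0.082 and 65 of 77 were negative, against a median of 0.004 over all genes. It was -0.037 on days 3, 4 and 5 alone, with 0 members called, and between -0.056 (without KO-KO replicate 2) and -0.124 (without KO-WT replicate 4) with 1 library left out. The largest were Mrpl57 at -0.51 (adjusted p = 0.179), Mrpl34 at -0.48 (0.179), Mrps12 at -0.44 (0.112) and Mrpl52 at -0.39 (0.196). The interaction also followed transcript GC content across members (rho = -0.56, and -0.50 over all genes).

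**Figure D3:**
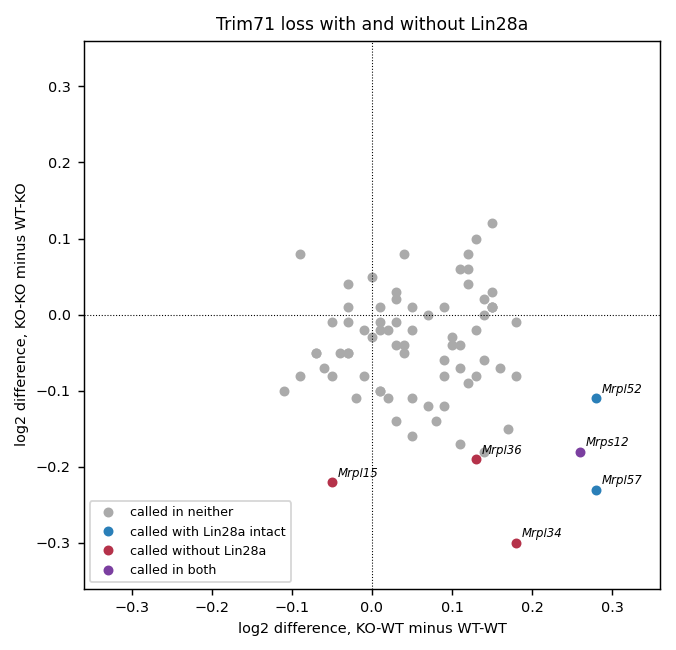
Each point is 1 of the 77 genes, with the log2 difference KO-WT minus WT-WT on the x axis and KO-KO minus WT-KO on the y axis, coloured by the comparison in which it was called. The lower right field, higher with Lin28a and lower without it, holds 39 genes, and Mrps12 is called on both axes.

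Loss of Lin28a in cells with Trim71 raised 10 members and lowered 4. Mrps2 (0.29), Mrpl40 (0.22), Mrpl37 (0.22), Mrpl58 (0.21), Mrps18b (0.20) and Mrps18a (0.19) rose most, followed by Mrpl2 (0.18), Mrps34 (0.15), Mrpl47 (0.14) and Mrpl45 (0.13), all as log2 differences WT-KO minus WT-WT. Mrps31 (-0.29), Mrps21 (-0.20), Mrps14 (-0.16) and Mrpl1 (-0.16) fell. The 14 calls were 18.2% of members, against 42.4% of all genes. At an unadjusted p under 0.05 there were 16 members, against 50.3% of all genes. The median over members was 0.016, against -0.008 over all genes. Mitochondrion-specific large-subunit proteins gave 5 of the higher calls (Mrpl37, Mrpl40, Mrpl45, Mrpl58 and Mrps18a) among 20, and conserved ones gave 2 higher and 1 lower among 30.

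Mrps2, a conserved protein of the small subunit, read 9.19, 9.24, 9.18 and 9.29 in WT-WT cells and 9.20, 9.14, 9.22 and 9.14 in KO-WT cells. It read 9.52, 9.52, 9.52, 9.51 and 9.52 in WT-KO cells and 9.54, 9.49, 9.53, 9.52 and 9.48 in KO-KO cells. The Lin28a-/- libraries were all above the Lin28a-intact ones, whatever the Trim71 state. The difference was 0.29 ± 0.0393 with Trim71 (SE, adjusted p = 2.12e-05) and 0.34 ± 0.0393 without it (adjusted p = 5.38e-06), higher in 4 of 4 pairs each. Clones E3 and C1 alone gave 0.31 and 0.33, and clones 1 and 1-4 alone gave 0.28 and 0.37.

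Mrpl37, a mitochondrion-specific protein of the large subunit, read 9.22, 9.17, 9.10 and 9.23 in WT-WT cells and 9.22, 9.20, 9.31 and 9.12 in KO-WT cells. It read 9.41, 9.43, 9.37, 9.37 and 9.41 in WT-KO cells and 9.37, 9.39, 9.48, 9.44 and 9.45 in KO-KO cells. Here too no Lin28a-/- library overlapped a Lin28a-intact one. The difference was 0.22 ± 0.0469 in both Trim71 states (adjusted p = 0.00149 in each, 4 of 4 pairs), and 0.26 and 0.20 in clones E3 and C1, 0.19 and 0.31 in clones 1 and 1-4.

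Mrps31, a mitochondrion-specific protein of the small subunit, went the other way. It read 8.67, 8.65, 8.72 and 8.64 in WT-WT cells and 8.82, 8.71, 8.80 and 8.81 in KO-WT cells. It read 8.42, 8.37, 8.32, 8.37 and 8.42 in WT-KO cells and 8.40, 8.42, 8.6, 8.39 and 8.41 in KO-KO cells. The highest Lin28a-/- library, KO-KO replicate 3, was still below the lowest Lin28a-intact library. The difference was -0.29 ± 0.0514 with Trim71 (adjusted p = 0.000335) and -0.34 ± 0.0514 without it (adjusted p = 7.22e-05), with -0.33 and -0.31 in clones E3 and C1 and -0.23 and -0.41 in clones 1 and 1-4.

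The 3 members named for bacterial S18 differed among themselves. Mrps18b, the mitochondrion-specific one of the small subunit, read 8.95, 9.01, 8.91 and 8.97 in WT-WT cells, 9.02, 9.03, 9.16 and 9.07 in KO-WT cells, 9.16, 9.27, 9.12, 9.09 and 9.15 in WT-KO cells and 9.23, 9.16, 9.26, 9.25 and 9.22 in KO-KO cells. It rose after Lin28a loss in both Trim71 states (0.20 ± 0.0483, adjusted p = 0.00308, and 0.15 ± 0.0483, adjusted p = 0.0166), the second call being lost without KO-WT replicate 1 (0.0683) or 2 (0.0649). Mrps18a rose with Trim71 intact (0.19 ± 0.0462, adjusted p = 0.00356) and measured 0.04 ± 0.0462 without Trim71. Mrps18c, the conserved one, measured 0.01 ± 0.0633 and -0.02 ± 0.0633.

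Mrpl40 read 9.12, 9.14, 8.98 and 9.16 in WT-WT cells and 9.31, 9.34, 9.18, 9.44 and 9.34 in WT-KO cells, without overlap. Its KO-WT values were 9.25, 9.15, 9.07 and 9.05 and its KO-KO values 9.17, 9.04, 9.26, 9.25 and 9.18, which overlapped. The call with Trim71 intact (0.22 ± 0.0659, adjusted p = 0.0122) was lost without WT-WT replicate 3 (0.0631). The difference without Trim71 was 0.05 ± 0.0659.

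Mrps14 and Mrps21, conserved small-subunit proteins, fell after Lin28a loss with Trim71, and Mrps14 also without it. Mrps14 read 8.84, 8.84, 8.69 and 8.74 in WT-WT, 8.82, 8.81, 8.75 and 8.75 in KO-WT, 8.63, 8.63, 8.51, 8.67 and 8.67 in WT-KO and 8.53, 8.55, 8.63, 8.67 and 8.61 in KO-KO cells, with no overlap between Lin28a states. Its difference was -0.16 ± 0.0528 with Trim71 (adjusted p = 0.0234, lost without WT-WT replicate 1 or 2 at 0.103 or 0.0962 or WT-KO replicate 3 at 0.0799) and -0.18 ± 0.0528 without it (adjusted p = 0.0102). The first call was also lost with the GC and length trend removed (-0.05, adjusted p = 0.466), after scaling to a common median (0.0839) and on days 3, 4 and 5 alone (0.116), and the second on those days (0.15). Mrps21 read 7.78, 7.69, 7.61 and 7.67 in WT-WT, 7.79, 7.64, 7.60 and 7.58 in KO-WT, 7.53, 7.46, 7.55, 7.51 and 7.42 in WT-KO and 7.37, 7.40, 7.45, 7.62 and 7.67 in KO-KO cells, where the last 2 reached the Lin28a-intact range. Its difference was -0.20 ± 0.0732 with Trim71 (adjusted p = 0.0388) and -0.15 ± 0.0732 without it, which did not pass (adjusted p = 0.1).

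The count of 14 members was 8 or 9 without WT-WT replicate 2, 3 or 4 or WT-KO replicate 1 or 5, with 35.9% to 36.7% of all genes called. Leaving out 1 library did not end the calls of Mrps2, Mrpl37, Mrpl58, Mrps18b, Mrps18a and Mrps31, while those of Mrps34 and Mrpl45 were lost in 12 of 18 such fits, that of Mrpl47 in 10, those of Mrpl1 and Mrps21 in 7 and that of Mrpl2 in 3. The highest adjusted p was 0.121, 0.202 and 0.145 for Mrps34, Mrpl45 and Mrpl47, each without WT-WT replicate 3, 0.106 for Mrpl1 without WT-KO replicate 3 and 0.155 for Mrps21 without WT-WT replicate 1. With the trend on GC content and length removed, Mrpl1 (adjusted p = 0.348) and Mrps34 (0.303) no longer passed. The split of 10 higher and 4 lower was 16 and 1 after scaling libraries to a common median, with 43.0% of all genes called. On days 3, 4 and 5 alone it was 9 and 1, with 31.4% of all genes called. In clones E3 and C1 alone it was 2 and 1, with 15.5% of all genes called. In clones 1 and 1-4 alone, with 1 KO-WT library in the fit, the members' median was -0.003.

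Loss of Lin28a in cells without Trim71 lowered 22 members and raised 4. Mrpl57 (-0.41 ± 0.0756, adjusted p = 0.00043), Mrps31, Mrpl34 (-0.34 ± 0.0719, adjusted p = 0.00136), Mrps12 (-0.33 ± 0.0549, adjusted p = 0.000161), Mrpl52 (-0.33 ± 0.0749, adjusted p = 0.00218) and Mrpl36 (-0.31 ± 0.0594, adjusted p = 0.000525) fell most, each lower in 4 of 4 pairs. Mrps24, Mrps26, Mrpl17, Mrpl46, Mrps28 and Mrpl27 fell by 0.20 to 0.24. Mrps2, Mrpl37, Mrps18b and Mrpl47 rose. The 26 calls were 33.8% of members, against 42.8% of all genes, 20.8% higher and 22.0% lower. At an unadjusted p under 0.05 there were 33 members, against 50.5% of all genes.

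The lower calls came from every role: 8 of 30 conserved and 5 of 20 mitochondrion-specific large-subunit proteins, and 6 of 16 conserved and 3 of 10 mitochondrion-specific small-subunit proteins. The members' median was -0.097 and 60 of 77 were negative, against a median of -0.001 over all genes. By day the median was -0.213 on day 2, which compares KO-WT replicate 1 with KO-KO replicate 2, and -0.071, -0.016 and -0.019 on days 3, 4 and 5. On days 3, 4 and 5 alone 7 members were called lower and 3 higher, with 28.7% of all genes called, against 42.8% with every library. The call of Mrpl46 was lost without KO-WT replicate 1 (0.107) or KO-KO replicate 2 (0.0875), that of Mrps28 without KO-WT replicate 1 (0.0523), and that of Mrpl47 without KO-WT replicate 2 (0.0644) or 4 (0.0856) or KO-KO replicate 3 (0.0962) or 5 (0.0536).

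After scaling to a common median 17 members were lower and 4 higher, with 43.1% of all genes called. Clones E3 and C1 alone gave 8 lower and 2 higher, with 24.0% of all genes called. In clones 1 and 1-4 alone, where KO-WT has 1 library, the members' median was -0.047. The 6 members called in both comparisons of Lin28a loss, Mrps2, Mrpl37, Mrps18b and Mrpl47 higher and Mrps31 and Mrps14 lower, had the same sign in both.

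**Figure D4:**
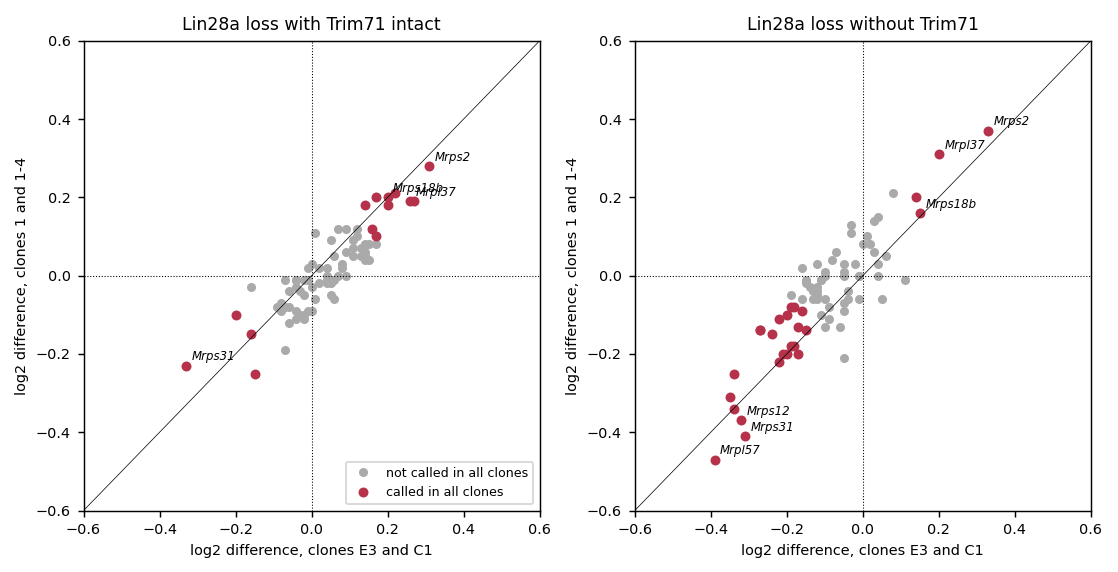
Each point is 1 of the 77 genes, with the log2 difference for Lin28a loss in clones E3 and C1 on the x axis and in clones 1 and 1-4 on the y axis, with Trim71 (left) and without it (right), and the thin line marks equal values. The called genes, in red, have the same sign on both axes, and Mrps2 (0.31 and 0.28 on the left) and Mrps31 (-0.33 and -0.23) lie far from 0 in both pairs of clones.

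Loss of both genes raised 7 members and lowered 7, 18.2% of members, against 45.6% of all genes, and 20 had an unadjusted p under 0.05, against 52.1%. Mrps2 (0.29 ± 0.0393, adjusted p = 2.58e-05), Mrps18b (0.27 ± 0.0483, adjusted p = 0.000333) and Mrpl37 (0.25 ± 0.0469, adjusted p = 0.000517) rose most, with Mrpl2, Mrps18a, Mrpl9 and Mrpl10 at 0.14 to 0.18. Mrps31 (-0.22 ± 0.0514, adjusted p = 0.0023) and Mrpl15 (-0.21 ± 0.0455, adjusted p = 0.00139) fell most, with Mrps21, Mrpl36, Mrps14, Mrpl51 and Mrps10 at -0.16 to -0.19. Mrps12, Mrpl52, Mrpl57 and Mrpl34, which fell from KO-WT to KO-KO cells, did not pass between WT-WT and KO-KO cells. Mrps12 measured -0.08 ± 0.0549, Mrpl52 -0.05 ± 0.0749, Mrpl57 -0.13 ± 0.0756 and Mrpl34 -0.16 ± 0.0719. The median over members was -0.045, against -0.019 over all genes.

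Leaving out 1 library did not end the calls of Mrps2, Mrps18b, Mrpl37, Mrps18a, Mrps31 and Mrpl15 for loss of both. That of Mrpl9 was lost in 14 of 18 such fits, with adjusted p up to 0.262 (without WT-WT replicate 3), and that of Mrps21 in 11 of 18, up to 0.178 (without WT-WT replicate 1). Mrpl36 lost it in 4 (up to 0.0802), Mrps14 (0.0593), Mrps10 (0.082) and Mrpl10 (0.0895) in 2 each, and Mrpl2 (0.0541) and Mrpl51 (0.0502) in 1. With the trend on GC content and length removed, Mrps31 (adjusted p = 0.147), Mrps14 (0.407) and Mrpl51 (0.133) no longer passed. After scaling to a common median the split was 9 higher and 2 lower, with a median of -0.004. On days 3, 4 and 5 alone it was 6 higher and 2 lower, with a median of 0.027 and 32.9% of all genes called. The same-day medians were -0.134 on day 1 and -0.037, 0.087 and 0.032 on days 3, 4 and 5.

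**Figure D5:**
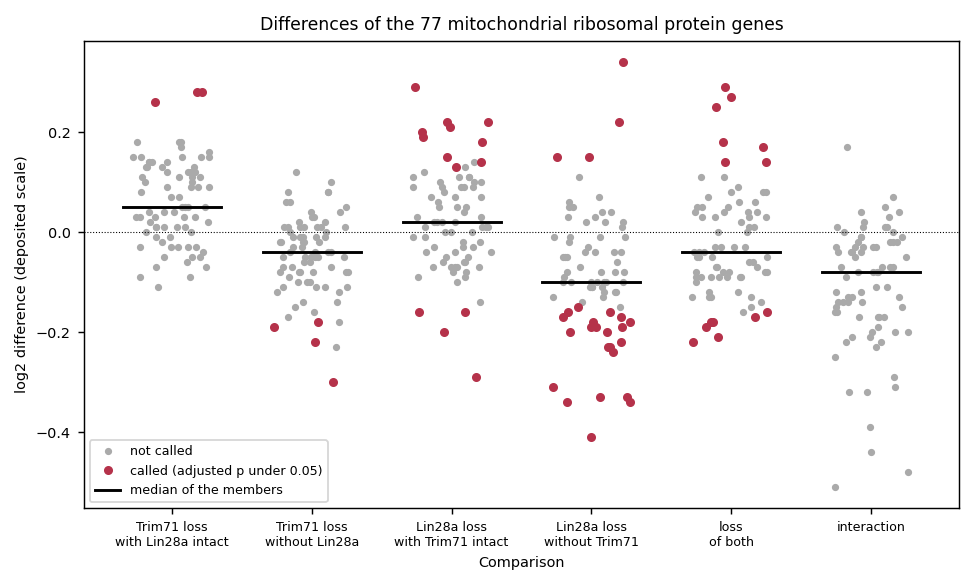
Log2 differences of the 77 genes in the 5 pairwise comparisons and the interaction, with called genes in red, the members' median as a bar, and points spread sideways only for legibility. The medians are 0.053, -0.043, 0.016, -0.097, -0.045 and -0.082 from left to right.

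Mrpl10 and Mrpl12, which form the stalk that recruits translation factors, moved little. Mrpl12 ranged from 10.22 to 10.49 over all libraries and passed in no comparison. Mrpl10 passed only for loss of both (0.14 ± 0.043, adjusted p = 0.0171), a call lost without WT-WT replicate 3 (0.0895) or KO-KO replicate 5 (0.0551).

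The other genes of mitochondrial translation were counted in lists, to be read against the 11.2% and 8.38% of all genes called for Trim71 loss with and without Lin28a and the 42.4% and 42.8% for Lin28a loss with and without Trim71. Of 24 assembly and rRNA-modification genes, 1 rose after Trim71 loss with Lin28a and 1 rose and 1 fell without it. The riser was Rbfa, a factor that matures the small-subunit rRNA, in both cases (0.50 ± 0.0624, adjusted p = 0.000277, and 0.25 ± 0.0534, adjusted p = 0.00943). After Lin28a loss 6 of the 24 rose and 2 fell with Trim71, and 3 rose and 2 fell without it, 33.3% and 20.8% called. Of 20 mitochondrial aminoacyl-tRNA synthetase genes, 8 rose and none fell after Lin28a loss with Trim71, and 6 rose and 1 fell without it, 40.0% and 35% called. Of 16 translation factor genes, 2 rose and 3 fell in each Lin28a comparison (31.2% called), among them Mtif3, an initiation factor, at -0.17 and -0.32. Of 5 tested subunit genes whose symbols do not begin with Mrp, Ptcd3 fell after Trim71 loss with Lin28a (-0.25 ± 0.0737, adjusted p = 0.0391), and Aurkaip1 (0.16) and Gadd45gip1 (0.19) rose after Lin28a loss with Trim71. Of 13 genes of mitochondrial DNA upkeep and transcription, 3 rose and 1 fell after Lin28a loss with Trim71 and 5 rose and none fell without it. Of 9 tested regulators of mitochondrial biogenesis, 2 rose and 3 fell and then 3 rose and 4 fell, with the coactivators Ppargc1b at 0.55 and 0.59 and Pprc1 at 0.33 and 0.32, and Myc at -0.64 and -0.67. The genes that mitochondrial DNA encodes were not analysed here.

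Nuclear genes of related complexes had medians of the same sign as the members after Trim71 loss with Lin28a and after Lin28a loss without Trim71. Of 77 cytosolic ribosomal protein genes, 10 rose and none fell after Trim71 loss with Lin28a (13.0% called, median 0.097), and 31 fell and none rose after Lin28a loss without Trim71 (40.3% called, median -0.108). Of 76 nuclear oxidative phosphorylation subunit genes, 16 rose and none fell in the first comparison (21.1% called, median 0.125), and 3 rose and 27 fell in the second (39.5% called, median -0.103). Of all genes 11.2% were called in the first, 4.74% higher, and 42.8% in the second, 22.0% lower. The members' medians in the same comparisons were 0.053 and -0.097. No test of the members against these lists was made.

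Some members lie so close to other genes that reads could be shared. In GENCODE vM21 annotation the exons of 27 members overlapped a gene on the opposite strand, and the library kit does not mark strand, so such reads cannot be told apart. Among them were Mrpl36, which overlaps Ndufs6, Mrpl47, which overlaps Ndufb5 and Actl6a, Mrpl46, which overlaps Mrps11, Mrpl27, which overlaps Eme1, and Mrps26, which overlaps 4930473A02Rik. Mrpl9, Mrpl10, Mrpl12, Mrpl14, Mrpl18, Mrpl58, Mrps7, Mrps18b and Mrps34 were others. Ndufs6, a subunit of respiratory complex I, fell with Mrpl36 after Lin28a loss without Trim71 (-0.35 ± 0.0573, adjusted p = 0.000153). It also fell after Lin28a loss with Trim71 (-0.24 ± 0.0573, adjusted p = 0.00332), where Mrpl36 measured 0.01 ± 0.0594. After Lin28a loss without Trim71 Eme1 (-0.21) and 4930473A02Rik (-0.25) fell, as did Mrpl27 and Mrps26. With Trim71 intact Eme1 (-0.16, limma adjusted p = 0.00457) and 4930473A02Rik (-0.22, limma adjusted p = 0.0165) fell too. There Mrpl27 (mean 8.5 in WT-WT and 8.44 in WT-KO cells) and Mrps26 (7.78 in both) were not called. Actl6a rose with Mrpl47 after Lin28a loss in both Trim71 states (0.28 and 0.23). In the same annotation 18 members had a divergent protein-coding start within 1000 bases. Mrps12 is divergent from Sars2, the mitochondrial seryl-tRNA synthetase, and after Lin28a loss without Trim71 Sars2 rose (0.21 ± 0.0543, adjusted p = 0.00528) while Mrps12 fell by 0.33. Mrpl57 is divergent from Ska3, a kinetochore protein, which rose in that comparison (0.18 ± 0.0533, adjusted p = 0.0129) while Mrpl57 fell by 0.41. Mrps18b is divergent from Ppp1r10, a phosphatase regulator, and both rose, by 0.15 and 0.83.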

How the data were processed

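RNA from 19 samples had been made into TruSeq RNA v2 libraries and sequenced in pairs on a HiSeq1500, per the labels' protocols; the submitters' processing notes name CASAVA 1.8, STAR and DESeq2. The counter, build and annotation are not given in the sources used here. The table deposited by the authors holds log2 normalised values per gene (lowest -0.71, highest 16.3). From the values, a day effect had already been removed (largest fitted day term 1.7e-08) and 1 KO-WT library, the only one of day 6, equalled the mean of its group, so 18 were analysed. Depth is unknown, so no counting error is given. The p-values measure the spread between cultures that is left after the genotype and day terms. Clone pairs were handled on separate days, so the day term takes up differences between days and between clone pairs.

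Differences were fitted with limma 3.58.1 in R 4.3.3 (genotype and day as terms, eBayes with trend, 10 residual degrees of freedom), over all 14988 genes with at least 10 units in at least 4 libraries, with Benjamini-Hochberg adjustment over all of them and calls at adjusted p under 0.05. The labels give the day, which pairs the samples. The scripts were tested on simulated data for Trim71 loss with Lin28a intact, with added differences larger than any called member difference. Recovery of differences of the sizes reported here was not tested. Members and lists were chosen with earlier results of these data known. Named members were, in each comparison, up to 12 called members per direction by size, and values in every library are given for the 3 largest per direction without overlap between the genotypes compared. Alternatives changed the day term, filter, scaling, GC and length trend, clones, days, variance model, groups in the fit and each library in turn. Summaries used pandas 2.3.3 and scipy 1.17.1.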

Additional observations from a re-analysis of the deposited data

Results flagged for a closer look

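Over 72 groups of member values in 4 genotypes searched for a library far from the others, 4 were found. Chance gives about 1 in 20 groups, so 4 of 72 is close to what chance gives. Mrpl10 was lowest in WT-WT replicate 3, at 9.77 with the nearest library at 9.89. Mrpl52 was highest in WT-KO replicate 2, at 8.23 with the nearest at 8.06. Mrps14 was lowest in WT-KO replicate 3, at 8.51 with the nearest at 8.63, and its call for Lin28a loss with Trim71 was lost without that library (adjusted p = 0.0799). Mrps31 was highest in KO-KO replicate 3, at 8.6 with the nearest at 8.42, and its calls for Lin28a loss held without it.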

How the results depend on the processing

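Of 51 named results, 26 held when any 1 of the 18 libraries was left out, and 10 held in every alternative fitted: Mrps2 and Mrpl37 in the 3 comparisons that involve Lin28a loss, Mrps31 in both comparisons of Lin28a loss, and Mrpl57 and Mrps12 for Lin28a loss without Trim71. No named result changed sign in any alternative. Leaving out 1 library gave 0 to 5 members for Trim71 loss with Lin28a, 2 to 6 for Trim71 loss without Lin28a, 8 to 14 for Lin28a loss with Trim71, 20 to 31 for Lin28a loss without Trim71, 10 to 18 for loss of both and 0 for the interaction. The shares of all genes called in those fits were 3.52% to 13.2%, 4.51% to 9.29%, 35.9% to 43.7%, 35.9% to 44.0%, 38.4% to 46.8% and 0.0% to 0.0267%. With no replicate block, that is without the day term, the counts were 24, 12, 21, 39, 23 and 12 in that order. The shares of all genes called were then 28.1%, 17.5%, 53.2%, 53.4%, 55.3% and 4.49%. Since day effects had been removed from the deposited values, that fit counts 14 residual degrees of freedom in place of 10. Clones E3 and C1 alone, with fewer samples, gave 0, 0, 3, 10, 2 and 0 members. Of all genes 0.0667%, 1.02%, 15.5%, 24.0%, 17.8% and 0.00667% were called in that fit. In clones 1 and 1-4 alone, where KO-WT has 1 library, the members' medians were -0.013, -0.07, -0.003, -0.047, -0.054 and -0.053. Days 3, 4 and 5 alone gave 1, 0, 10, 10, 8 and 0 members, with 3.16%, 1.45%, 31.4%, 28.7%, 32.9% and 0.0% of all genes called. With only the genotypes compared in the fit the counts were 0, 2, 12, 23 and 7, and the interaction, which needs all 4, was not run. The shares of all genes called there were 0.2%, 5.3%, 45.4%, 43.0% and 39.0%. Trim71 loss with Lin28a gave 1 member without a filter on low values, 1 with eBayes without trend and 5 after the GC and length trend was removed. The shares of all genes called in these fits were 6.27%, 8.31% and 7.47%. The cause was not tested. Depth is unknown, so how far it limits the lower-valued members cannot be given.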
